A study of Homo sapiens with 2 samples.

Results

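Lysine deacetylases remove acetyl groups from histones and other proteins, and the genes described here are 10 members of that family: HDAC7, HDAC1, HDAC2, HDAC3, HDAC4, HDAC5, HDAC9, SIRT3, SIRT6 and SIRT7. They were taken by name, as 10 of the 19974 protein-coding genes that RefSeq places on chromosomes 1 to 22 and X of GRCh38, because HDAC7 is named in the title of the study, and they are shown beside the whole human family of 18 genes (HDAC1 to HDAC11 and SIRT1 to SIRT7). The experiment was chromatin immunoprecipitation with sequencing in F36P, a human erythroleukaemia cell line. One culture, AM-ERG (labelled ERG overexpression), carried ERG, an ETS-family transcription factor, fused to an AM epitope tag in the retroviral vector MSCV-PIG, and the other, Vector (labelled WT), carried MSCV-PIG alone. Both were kept in puromycin at 1 µg/ml for 4 days and precipitated with an antibody to the tag, and the labels list 1 library of each, so no value below has a replicate error and AM-ERG could not be tested against Vector. The values come from 1 deposited list of 1645 peaks, of which 1564 lie on chromosomes 1 to 22 and X. Whether Vector served as the control of that list is not stated in the labels or the file, and the read depth of the libraries is unknown. A peak list carries no expression values, so the labelled cell line was not checked against marker genes.

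The classical deacetylases depend on zinc and fall into classes. In class I (HDAC1, HDAC2, HDAC3, HDAC8), HDAC1, HDAC2 and HDAC3 work in nuclear corepressor complexes such as SIN3, NuRD, CoREST and NCOR. Class IIa (HDAC4, HDAC5, HDAC7, HDAC9) shuttles between nucleus and cytoplasm under the control of 14-3-3 proteins, binds MEF2 factors and has weak catalytic activity of its own. Sirtuins use NAD instead of zinc, with SIRT3 in mitochondria, SIRT6 on chromatin and SIRT7 in the nucleolus. ETS factors recognise DNA around a GGAA core.

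Of the 10 member genes, 4 had a peak summit in the gene or within 10 kb of it: SIRT6, HDAC1, SIRT3 and SIRT7. By the same count 9.58% of all protein-coding genes had one. In the whole family of 18 it was the same 4 genes (22.2%). By class the count was 1 of 4 class I genes, 0 of 4 class IIa genes, 0 of 2 class IIb genes (HDAC6 and HDAC10), 0 of 1 class IV gene (HDAC11) and 3 of 7 sirtuins. HDAC7 was among the genes with none. The member list was drawn up with these results known, and it holds every family gene that has a peak, so its 4 of 10 is a description and the 4 of 18 is the count that no choice of members affects. Each class holds few genes, and no difference between classes was tested.

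**Figure D1:**
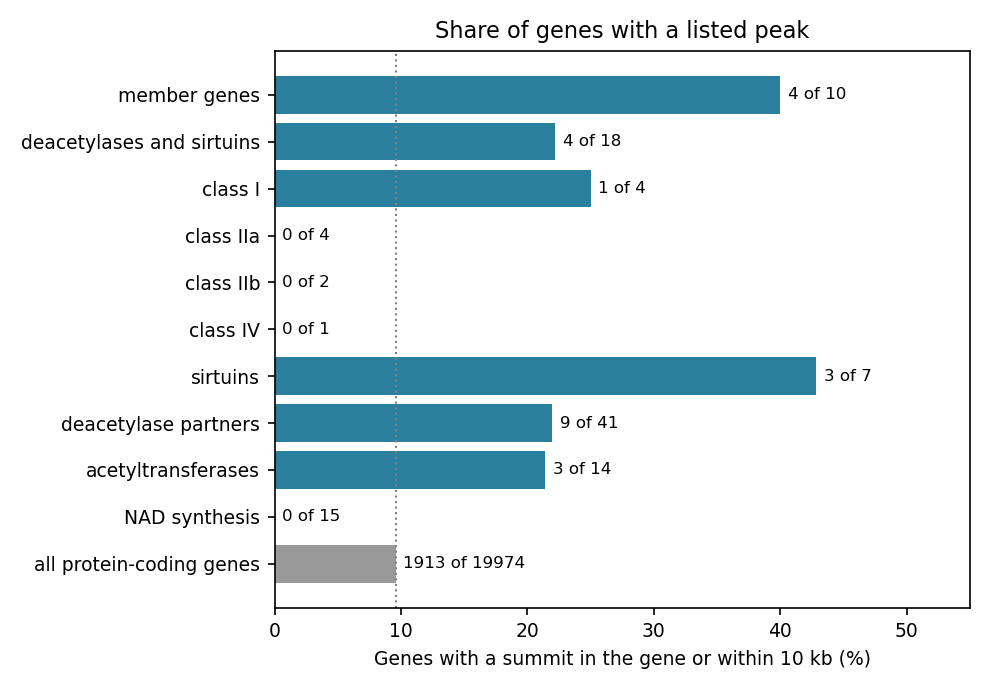
Share of genes with a peak summit in the gene or within 10 kb (horizontal axis, percent), for the member genes, the 18 deacetylase and sirtuin genes, each class, and 3 lists of functionally linked genes, with all protein-coding genes in grey at the bottom and their share as the dotted line. Class IIa, which includes HDAC7, stood at 0 of 4 and the sirtuins at 3 of 7.

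The peaks of SIRT6, HDAC1 and SIRT3 had a summit within 1 kb of an annotated start of transcription. The bases of those promoters are given with a promoter of HDAC7 as a gene without a peak. Each is a RefSeq window on GRCh38.p14, from 250 bases before to 50 after a start, printed 5′ to 3′ on the strand of the gene. Capitals mark the ETS core, GGAA or its complement TTCC. The start is base 251 of each window.
SIRT6, upstream start, chr19:4182514-4182813, minus strand: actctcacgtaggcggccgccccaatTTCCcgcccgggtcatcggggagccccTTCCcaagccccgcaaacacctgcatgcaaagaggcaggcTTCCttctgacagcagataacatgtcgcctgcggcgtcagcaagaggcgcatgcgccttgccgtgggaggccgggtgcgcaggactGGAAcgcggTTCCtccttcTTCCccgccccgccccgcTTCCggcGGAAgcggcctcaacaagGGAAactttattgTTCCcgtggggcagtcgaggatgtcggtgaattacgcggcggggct
SIRT6, downstream start, chr19:4182257-4182556, minus strand: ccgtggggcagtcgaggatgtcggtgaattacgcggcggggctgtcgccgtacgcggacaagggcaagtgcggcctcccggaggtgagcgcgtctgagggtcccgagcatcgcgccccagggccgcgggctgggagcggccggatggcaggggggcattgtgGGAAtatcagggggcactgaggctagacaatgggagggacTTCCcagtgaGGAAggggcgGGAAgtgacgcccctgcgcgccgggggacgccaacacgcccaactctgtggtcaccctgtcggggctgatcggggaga
HDAC1, chr1:32291833-32292132, plus strand: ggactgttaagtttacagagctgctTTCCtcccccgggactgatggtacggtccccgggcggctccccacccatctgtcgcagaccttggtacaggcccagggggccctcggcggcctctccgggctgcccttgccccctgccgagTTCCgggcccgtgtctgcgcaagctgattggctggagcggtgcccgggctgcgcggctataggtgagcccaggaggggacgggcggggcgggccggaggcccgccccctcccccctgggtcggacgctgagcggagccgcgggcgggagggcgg
SIRT3, chr11:236882-237181, minus strand: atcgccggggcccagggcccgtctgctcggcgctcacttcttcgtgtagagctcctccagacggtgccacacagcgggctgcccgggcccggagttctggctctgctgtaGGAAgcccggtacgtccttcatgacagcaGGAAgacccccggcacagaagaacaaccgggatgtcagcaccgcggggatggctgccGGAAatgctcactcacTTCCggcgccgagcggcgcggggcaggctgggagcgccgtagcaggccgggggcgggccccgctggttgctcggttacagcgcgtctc
HDAC7, chr12:47819854-47820153, minus strand: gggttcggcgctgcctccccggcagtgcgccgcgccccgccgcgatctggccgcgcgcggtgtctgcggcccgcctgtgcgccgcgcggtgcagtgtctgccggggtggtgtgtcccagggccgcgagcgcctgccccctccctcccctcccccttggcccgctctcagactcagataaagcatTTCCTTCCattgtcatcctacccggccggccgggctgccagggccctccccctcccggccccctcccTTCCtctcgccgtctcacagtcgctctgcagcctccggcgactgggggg

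SIRT6, which encodes a chromatin-bound NAD-dependent deacylase of histone H3, had the strongest peak of the family. It spanned chr19:4182111-4182691, 581 bp, and had a fold enrichment of 12.3, the authors' value over local background at the summit. Its −log10 p was 50.9, and the authors' deposited table gave a −log10 q of 44.8. The pileup recovered at the summit was 63 fragments on a background of 4.22, where peaks on chromosomes 1 to 22 and X had medians of 21 and 3.52 fragments and a median fold of 4.66. The peak ranked 10 of 1564 by fold and 15 by significance. Its fold was 2.93 times that of the next member.

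The SIRT6 summit lay 73 bp inside the gene, between its annotated starts: 73 bp after the upstream start and 184 bp before the downstream one. The peak also covered the start of ANKRD24, which runs the other way from a start 126 bp from that of SIRT6. That start, chr19:4182689, was close to the edge of the peak and 199 bp from the summit. A peak that covers the starts of both genes cannot be assigned to one of them. CREB3L3, a liver and gut transcription factor gene, was the other gene within 10 kb (9436 bp) and had no end near the summit.

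HDAC1, the catalytic subunit of several nuclear corepressor complexes, had a peak of ordinary strength at its own start. It spanned chr1:32292049-32292411, with a fold of 4.05, a −log10 p of 9.21 and, in the authors' deposited table, a −log10 q of 5.12. The pileup was 23 fragments on a background of 4.93. The peak ranked 1072 by fold and 919 by significance, and 31.0% of the 1564 peaks had a lower fold. Its summit was 168 bp after the annotated start, and no other protein-coding gene had an end within 1 kb. LCK, a T-cell tyrosine kinase gene, ended 6086 bp away, and its own nearest annotated start was 18130 bp from the summit. A stronger peak, of 6.82 fold, lay 17.7 kb past the far end of HDAC1 and 9950 bp from the nearest coding gene end, that of FAM229A, so it was outside the window.

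SIRT3, a mitochondrial deacetylase gene, had a peak that it shared with PSMD13, which encodes a subunit of the proteasome's regulatory particle. The starts of these divergent genes are 45 bp apart. The peak spanned chr11:236993-237347, with a fold of 4.02, a −log10 p of 8.31 and, in the authors' deposited table, a −log10 q of 4.33. Its pileup was 20 fragments on a background of 4.22. It ranked 1086 by fold and 1055 by significance. The summit was 177 bp before the SIRT3 start and 132 bp after the PSMD13 start, so it was inside PSMD13 and outside SIRT3. The peak as a whole covered neither start.

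SIRT7, a nucleolar sirtuin gene, was counted through a peak that was nearer to another gene. It spanned chr17:81910346-81910720, with a fold of 4.18, a −log10 p of 6.42 and, in the authors' deposited table, a −log10 q of 2.71, the least significant of the 4. The pileup was 12 fragments, against a range of 10 to 3977 over all 1564 peaks, on a background of 2.11. Its rank was 1024 by fold and 1378 by significance. The summit was 1496 bp from the nearer end of SIRT7, and it lay inside PCYT2, an enzyme gene of phosphatidylethanolamine synthesis, 732 bp after an annotated start of that gene. ANAPC11, NPB and MAFG were also within 10 kb of it, at 9910, 7538 and 7827 bp. No start of SIRT7 was used here.

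**Figure D2:**
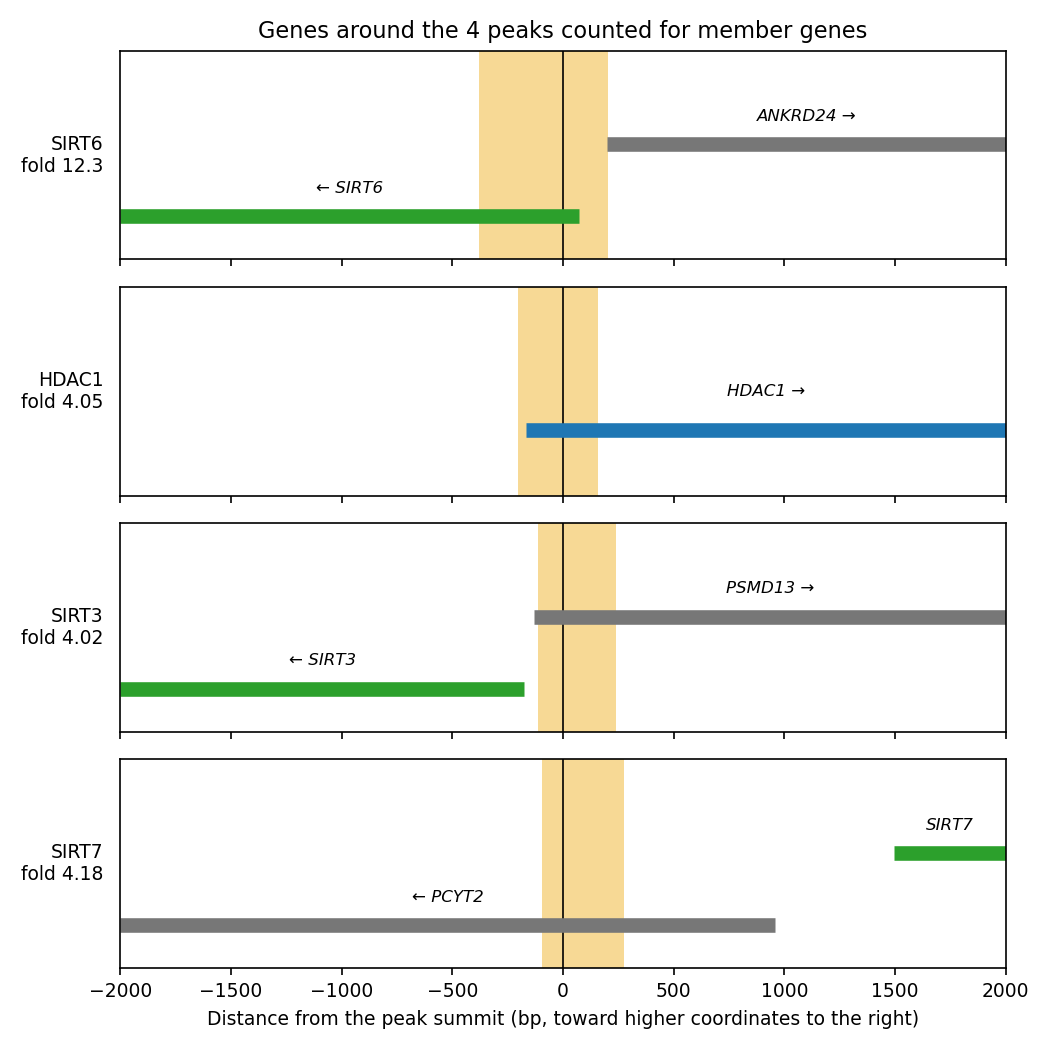
Genes around the peaks of SIRT6, HDAC1, SIRT3 and SIRT7, drawn to scale by distance from the summit in bp (vertical line). The shaded band is the peak, bars are genes, coloured for the member and grey for its neighbours, and arrows give the strand where the promoter table has it. The summits lie 73 bp from an end of SIRT6, 168 bp from that of HDAC1, 177 bp from that of SIRT3 and 1496 bp from that of SIRT7.

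Of the 10 members, then, 3 had a summit within 1 kb of one of their own ends, and no other of the 18 family genes did. Of all protein-coding genes, 5.86% did. The member list holds every family gene with a peak, so its 3 of 10 is a description. The promoter table gave starts for 8 of the 10 members and 16 of the 18 family genes, without HDAC5 and SIRT7. A summit lay within 1 kb of a start in SIRT6, HDAC1 and SIRT3, 3 of those 8 and 3 of those 16, against 6.41% of the 15813 coding genes with a start in the table. Of the 1564 peaks 880 lay within 1 kb of such a start, with a median fold of 4.82, above the values of HDAC1, SIRT3 and SIRT7 and below that of SIRT6.

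**Figure D3:**
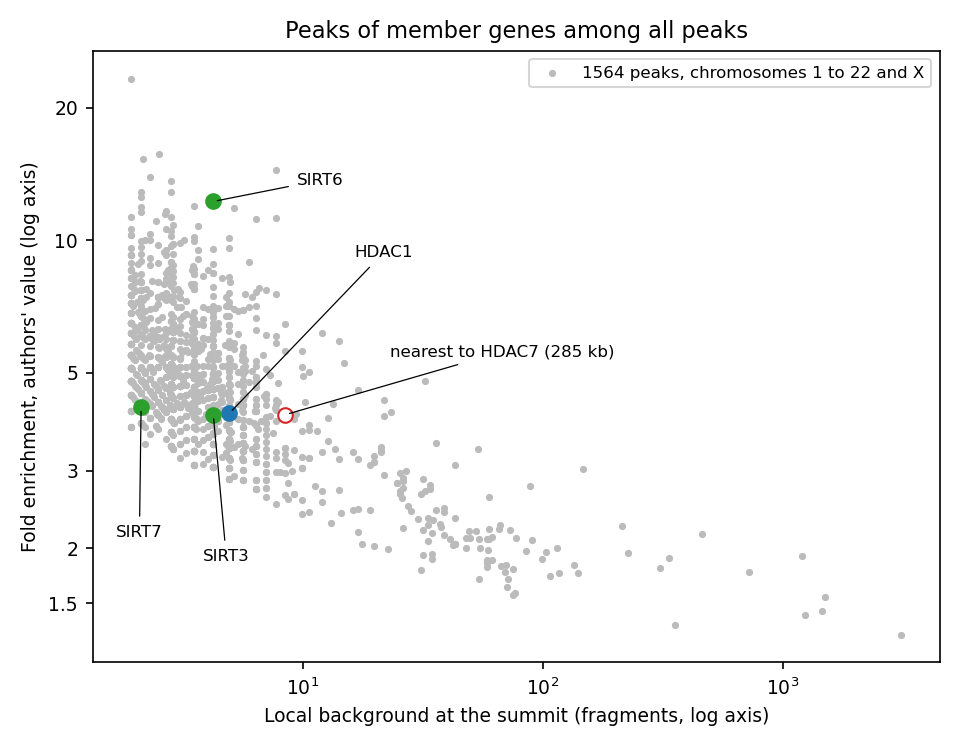
Fold enrichment, the authors' value, against the local background in fragments, both on log axes, for the 1564 peaks on chromosomes 1 to 22 and X (grey). Filled points are the peaks counted for member genes and the open point is the peak nearest to HDAC7. SIRT6 stands at 12.3 fold, while HDAC1, SIRT3 and SIRT7 lie between 4.02 and 4.18 fold, below the median of 4.66.

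HDAC7 had no listed peak in the gene, which spans chr12:47782722-47821344, or within 10 kb. The nearest summit was 285 kb from the gene, on the side of its upstream end, and 286 kb from its annotated start. That distance was near the middle of all genes: 42.0% of protein-coding genes had a nearer peak, and the median over all of them was 412 kb. The peak, at chr12:48105813-48106110, had its summit where SENP1, a SUMO protease gene, and PFKM, the muscle phosphofructokinase gene, overlap at their upstream ends. It was inside both genes, 60 bp before the nearest annotated start of SENP1 and 8 bp before the nearest one of PFKM. The peak had a fold of 4.02, a −log10 p of 13.1 and a pileup of 37 fragments on a background of 8.45, a background higher than at 89.5% of peaks. It was the single peak within 1 Mb of HDAC7, where 2 of 29 other coding genes (6.90%), SENP1 and PFKM, had a peak. Of all coding genes 9.58% had one. HDAC6, HDAC11, SIRT1 and SIRT4 also had 1 peak within 1 Mb, and HDAC2, HDAC8, HDAC9 and SIRT5 had none. The next summits above the peak at SENP1 and PFKM were at DDX23 and ARF3, 1031 and 1136 kb from HDAC7. The nearest below HDAC7 was 1410.4 kb away. How weak a site the list could hold was not tested, so HDAC7 is described as having no listed peak, not as unbound.

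The other class IIa genes had none either. The peak nearest to HDAC4, a class IIa gene of 353 kb with 5 annotated starts, was 621 kb away at the start of ASB1 and was strong (fold 8.27, pileup 48 fragments, rank 55 by significance). HDAC9, the longest member at 916 kb, also has 5 annotated starts, and its nearest peak was 13493 kb away, on a chromosome with 31 peaks. That distance exceeded those of 98.4% of coding genes. HDAC5 had its nearest peak 708 kb away, with a fold of 3.04 and, in the authors' deposited table, a −log10 q of 1.82. Of the 9 peaks within 1 Mb of HDAC5, all on its lower-coordinate side, 7 had a background above 2 times the median (7.04 fragments), and none of the 48 other coding genes in that stretch had a peak.

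Among class I genes the distances were uneven. HDAC3, the catalytic subunit of the NCOR complex, was 287 kb from its nearest peak, at the start of DELE1, where the fold was 4.11 and the pileup 11 fragments. HDAC2, which shares complexes with HDAC1, had its nearest peak 2449.7 kb away, near a start of REV3L, at 5.76 fold. No peak lay within 1 Mb of HDAC2. HDAC8, outside the member list, was 18907 kb from its nearest peak, at SMC1A on the X chromosome, which had 21 peaks in all.

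Of the remaining family genes without a peak, SIRT2, a mostly cytoplasmic sirtuin gene, came closest, 28.8 kb from a peak of 5.18 fold in HNRNPL. HDAC10 followed at 76.1 kb, SIRT4 at 97.0 kb, HDAC6 at 255 kb, HDAC11 at 639 kb, SIRT1 at 983 kb and SIRT5 at 1631 kb. The nearest peak was within 1 kb of a start of another coding gene for 13 of the 14 family genes without one, HDAC5 being the exception. Most listed peaks lie at such starts, 880 of 1564, so this is not a trait of the family. The median distance of these 14 genes was 629.9 kb, against 519 kb over the 18061 coding genes without a counted peak, and 8 of the 14 lay beyond that median. Among the members the 10 kb window fell in a gap. The farthest counted member was SIRT7 at 1496 bp, and the nearest member not counted was HDAC7 at 285 kb. The member list was drawn up with these results known, so the width of that gap is a description. In the whole family the gap ended at SIRT2, at 28.8 kb. HDAC10, SIRT4 and HDAC6, also outside the member list, were nearer to a peak than HDAC7 too. With a window of 100 kb the family count was 7.

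**Figure D4:**
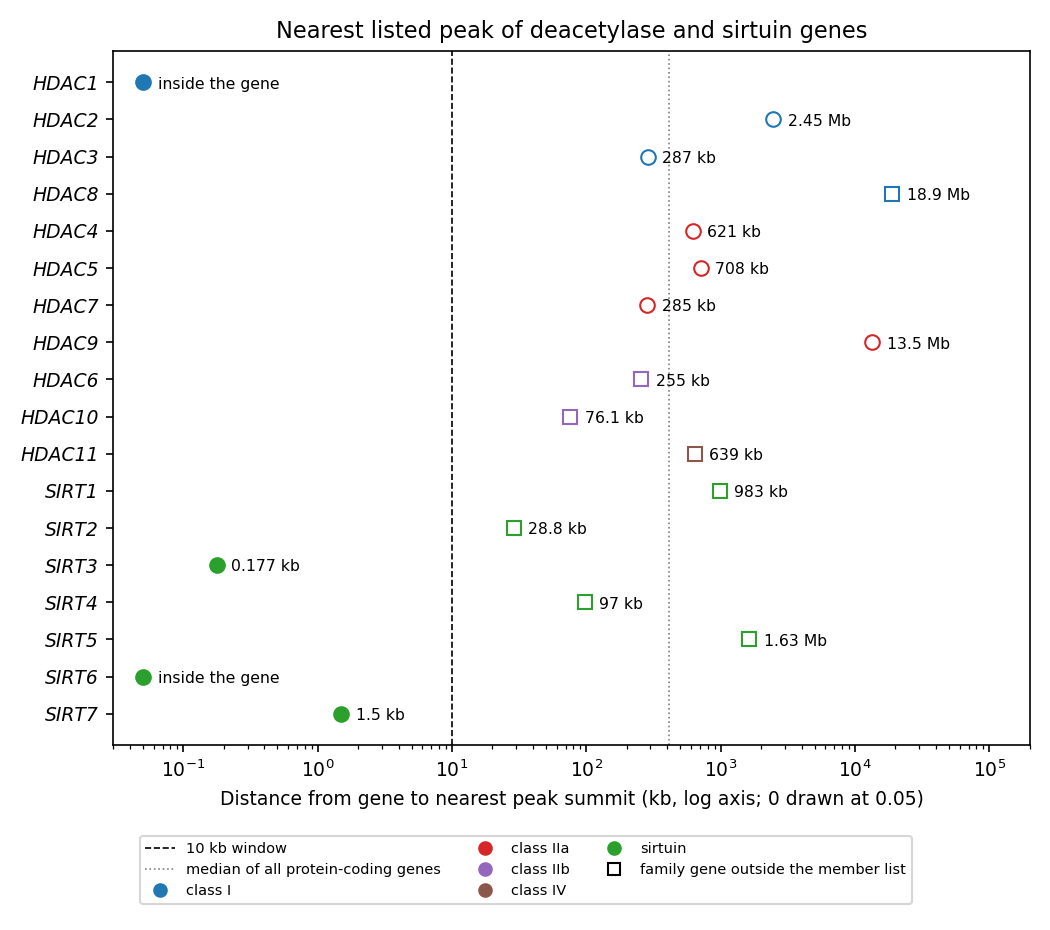
Distance in kb from each of the 18 family genes to its nearest peak summit, on a log axis, with summits inside a gene drawn at 0.05. Filled points are genes counted as having a peak, squares are family genes outside the member list, and lines mark the 10 kb window and the median of all coding genes (412 kb). HDAC1, SIRT3, SIRT6 and SIRT7 lie left of the window, and HDAC7 is at 285 kb.

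The ETS letters of the printed promoters were then counted on both strands. The core GGAA was in all 29 windows of the 16 family genes with a start, and in 95.5% of all 35116 promoter windows of the same length. The upstream SIRT6 window held 10 cores, a number reached by 0.738% of windows, and 7 of them lay within the peak. All 4 cores of the downstream SIRT6 window were within it. The core nearest to the SIRT6 summit was 67.5 bp away, centre to summit.

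The longer word CCGGAA, which contains the core, was in 6 of the 29 family windows, 1 for each of 6 genes: SIRT6, HDAC1, SIRT3, HDAC4, HDAC10 and SIRT2. These include the 3 genes with a summit within 1 kb of their own start. Of the 6 windows with the word, however, only that of SIRT3 held the summit itself. The HDAC1 window and the upstream SIRT6 window did not. The downstream SIRT6 window held a summit and had no CCGGAA. The HDAC7 window had 3 cores, as TTCC, and no CCGGAA. That window is set by the 1 annotated start of HDAC7, chr12:47819903, which lies inside the gene. The bases at the gene's upstream end, chr12:47821344, were not searched. Of the 448 windows in the table that hold a summit, 71.0% had CCGGAA, and of all 35116 windows 17.2%. Windows with a summit were also richer in G and C, with a median GC content of 68.7% against 58.7%. Among windows of 65 to 75% GC, a setting chosen after seeing the data, the shares were 68.7% and 26.4%. Windows of 1 gene can overlap, and a word is a run of letters, not a shown site.

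Where these words lay differed between the members. In SIRT6 the CCGGAA, read on the opposite strand, was inside the peak with its centre 104.5 bp from the summit. In SIRT3 the window held it on both strands, at bases 195 to 200 and 213 to 218, and the second was part of CCGGAAGT, a word in 4.14% of all windows and in no other family window. Both lay between the SIRT3 start and the peak, at 123.5 and 141.5 bp from the summit, and the SIRT3 peak itself covered 2 of the 4 cores. In HDAC1 the CCGGAA was 269.5 bp from the summit and outside the peak, which covered none of the window's 2 cores. Much of the HDAC1 peak lies past the end of the window, and its bases there were not searched. The GATA word AGATAA was in 4 of the 29 family windows, 1 each of SIRT6, HDAC7, HDAC4 and HDAC9. It was in 3.57% of the windows that hold a summit and in 10.3% of all windows. The RUNX word TGTGGT was in 5 of the 29, 1 each of SIRT6, HDAC4, HDAC8, SIRT1 and SIRT4, in 8.48% of windows with a summit and in 13.1% of all. Among windows of 65 to 75% GC, the range chosen after seeing the data, the order was reversed for each word. The GATA word was there in 3.57% of windows with a summit and 2.08% of all. For the RUNX word these shares were 9.52% and 7.80%.

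The proteins that deacetylases work with were counted next. Their list, too, was chosen with earlier results of these data known, so its counts are a description. Of 41 genes for complex subunits and class IIa binding proteins, 9 (21.95%) had a summit within 10 kb by the count used above, where all protein-coding genes had 9.58%. The counts included 2 of 8 for SIN3, 1 of 11 for NuRD, 1 of 4 for CoREST, 1 of 2 for MiDAC and 3 of 11 for the proteins that bind class IIa enzymes. The NuRD count is at the share of all genes, and the other groups hold too few genes to read apart from it. The last of these groups holds MEF2 and 14-3-3 proteins, which bind the class that includes HDAC7. MEF2A, a MEF2 transcription factor that recruits class IIa enzymes, had a peak of 5.93 fold 186 bp from an annotated start, with a pileup of 30 fragments. YWHAB, a 14-3-3 gene, had one of 5.34 fold 145 bp from its start, and YWHAZ, another 14-3-3 gene, one of 3.22 fold on a background of 9.86 fragments. MEF2B, MEF2C, MEF2D and the other 14-3-3 genes of the list had none.

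Among the complex subunits, SIN3B had the most significant peak (fold 7.01), but its summit was 8606 bp from the gene and at an end of F2RL3. RCOR1, the scaffold of the CoREST complex, had a peak of 5.17 fold 805 bp before the gene. MIDEAS, the scaffold of the mitotic deacetylase complex MiDAC, had one of 5.10 fold inside the gene, 18641 bp from an annotated start. GATAD2A of NuRD had a most significant peak of 4.29 fold 478 bp from an annotated start, and SUDS3 of the SIN3 complex had one of 2.86 fold 2 bp from its start.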

How the data were processed

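The deposited file is 1 list of MACS2 narrow peaks; Bowtie2, MACS2, deepTools and the build hg38 are named per the submitters' processing notes, with no version or setting stated. Per the labels' protocols, micrococcal nuclease cut the chromatin for 20 minutes after fixation in 1% formaldehyde, and each precipitation used 10 µg. The deposited values per peak are a score, the fold enrichment (a ratio to local background), −log10 p-values and −log10 q-values, and the summit offset. The largest q was 0.0474.

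Summits were assigned to genes of RefSeq GRCh38.p14, all 88 list genes matched, and starts and strands came from its 35116 promoter windows (27305 genes). The tables used give no exons, so exon, intron and UTR were not told apart. Pileup and background were recovered from the fold, (pileup + 1) / (background + 1), and the Poisson p. All 1645 p-values were returned within 0.001 in log10. On simulated peaks built with the same formula, 300 of 300 pileups were recovered, for backgrounds up to 42.7 fragments. That checks the inversion only, not whether the submitters' peaks follow the formula. Recovered backgrounds in the list reached 3121.5 fragments, beyond the simulated range. Coordinates are 1-based.

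Members and lists were chosen with earlier results of these data known. Named are all family genes, genes sharing a member's peak and up to 6 per other list by significance; a partner gene that this takes is not reported here. No test was run, as each group has 1 library, and alternatives covered window, threshold and words. Tools were Python 3.11.15, numpy 2.4.6, pandas 2.3.3, matplotlib 3.10.9 and SciPy 1.17.1.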

Additional observations from a re-analysis of the deposited data

How the results depend on the processing

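No paired analysis was possible because AM-ERG and Vector have 1 library each. The 4 members (SIRT6, HDAC1, SIRT3 and SIRT7) were the ones counted with a window of 5 or 100 kb, at q of 0.01 or less, without peaks of raised background and by any base of the peak. With 1 kb SIRT7 dropped out, leaving 3. By annotated starts (chosen after seeing the data) the count was also 3, but SIRT7 and HDAC5 have no start in the promoter table and could not be counted. In the upper 50% of peaks by −log10 p or by fold, 1 member and 1 family gene had a peak, SIRT6, and the count at own ends was also 1. That threshold lies above the 3 weaker peaks by construction. With 100 kb the family count was 7. The share of all coding genes was 7.23% at 1 kb, 8.38% at 5 kb, 25.1% at 100 kb, 5.002% and 5.49% in the upper 50% by −log10 p and by fold, 9.02% at the stricter q, 9.14% without raised background and 6.41% by starts. Among peaks of the upper 50% by fold, HDAC7 was 1031 kb from its nearest. Of the 41 partner genes, 8 had a peak at 1 kb, 4 in the upper 50% by −log10 p and 6 in the upper 50% by fold. Of the 14 acetyltransferase genes, 3 had one at 1 kb and 0 in the upper 50% by either measure. NAD genes stayed at 0 in each setting run. ETS letters were in windows of 1 member as CCGGAAGT, of 4 as CCGGAA and of 8 as GGAA, since the shorter words are parts of the longer. Depth is unknown, and with 1 library per group no value has a replicate check.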

Other observations

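The enzymes that oppose deacetylases, and those that make the sirtuin cosubstrate NAD, were counted in the same way. Both lists were chosen with earlier results of these data known, so their counts are descriptions. Of 14 lysine acetyltransferase genes, 3 (21.4%) had a peak, where 9.58% of all coding genes did. KAT5, which encodes TIP60, had one of 4.02 fold 5 bp from an annotated start, with a pileup of 20 fragments. ESCO1, a cohesin acetyltransferase gene, had one of 3.94 fold 188 bp from its end. KAT6A, which encodes the acetyltransferase MOZ, had one of 3.37 fold 409 bp outside the gene. All 3 were below the median fold of 4.66, and EP300 and CREBBP were among the genes without a peak. Of 15 genes of NAD synthesis, NAMPT among them, 0 had a peak, and their median distance to one was 610.0 kb, against 412 kb over all coding genes.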
